A study of Diospyros lotus with 24 samples.

Results

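The spread of bud gene expression among individual trees was compared between 8 sons and 9 daughters of the KK family of the persimmon Diospyros lotus, 17 of the 20 bud mRNA libraries and of the 24 samples of the series. Sons are the progeny trees labelled male and daughters those labelled female. All come from a cross of a male with a female tree of the cultivar Kunsenshi, in a population of 57 trees planted at a single site, and each library comes from the mixed buds of a separate tree. Son 5, whose library holds 387 counts, and both parents were left out, and the trees are numbered 1 to 9 within each sex. Buds were collected on June 17 and July 4, 2013, dates that the labels link, in that order, to primordia of males and of females, so sampling date and sex cannot be told apart. No treatment is given in the labels. With 1 library per tree, the spread among trees holds differences between trees and between library preparations together.

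Diospyros lotus bears male and female flowers on separate trees, and a small RNA encoded on the Y chromosome that silences a homeobox gene is known to set the male form. Full siblings receive different combinations of their parents' alleles, so an expressed allele can be present in some siblings and missing in others. A contig assembled from reads without a genome can stand for a whole transcript, a fragment of it or a single allele. The files hold contig IDs without gene names, so no contig can be given a function here, and the labelled tissue could not be checked against marker genes.

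Library totals ran from 5823321 to 15314430 counts in sons, with a median of 7386284, and from 3527282 to 6963244 in daughters, with a median of 4963400. Because a deeper library has less counting error and so less apparent spread, every library was thinned at random to 3527282 counts, the total of daughter 1, before any comparison of spread. At that depth 140775 to 172543 contigs were counted per son and 135804 to 171320 per daughter. Spread was measured on 45773 contigs with a mean of at least 10 thinned counts over the 17 trees, as the variance of log2(CPM + 0.5), where CPM scales each library to the same total. These values include counting error, which is alike in all libraries at matched depth. Counts given for the mother and the father are of their full libraries, which were not thinned. They are therefore not on the scale of the thinned counts of the progeny trees.

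The spread among trees was slightly smaller in sons than in daughters, by an amount inside the middle 95% of what shuffled sex labels give. The variance among trees averaged 0.231 over contigs in sons (n = 8) and 0.258 in daughters (n = 9), a ratio of 0.895. Over all 24310 ways to call 8 of the 17 trees sons, the middle 95% of ratios ran from 0.833 to 1.20 (two-sided exact permutation test, p = 0.247, adjusted p = 0.321 over 5 such tests). Contig by contig, the variance was larger in sons for 43.2% of contigs, where shuffled labels gave 37.7% to 60.9% (exact permutation test, p = 0.272). The median log2 variance ratio, sons over daughters, was -0.19, a ratio of 0.874, where shuffled labels gave -0.35 to 0.31 (exact permutation test, p = 0.265, adjusted p = 0.321). A difference inside these ranges was not detectable with 17 trees. In whole buds, fewer cells of a type and less RNA per cell cannot be told apart.

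**Figure D1:**
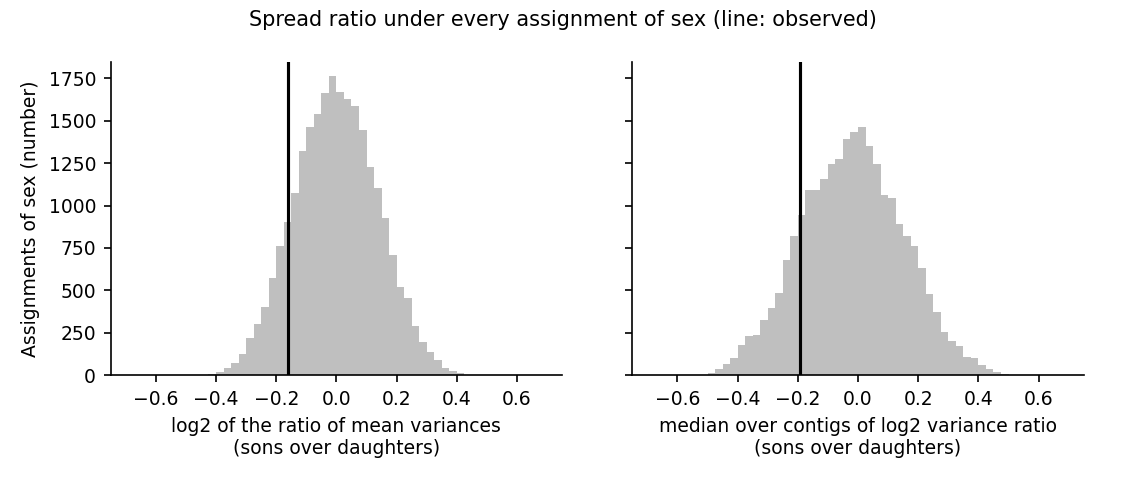
Ratio of spread, sons over daughters on a log2 scale, under all 24310 assignments of sex to the 17 trees (grey bars, number of assignments), for the mean variance (left) and the median contig (right). The black line marks the labelled sexes, which lie left of 0 on both sides and inside the bulk of the shuffled values.

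Counting error can be taken out at matched depth, which leaves the spread between trees as a fraction of the level (CV). For the median contig this CV was 0.173 in sons and 0.193 in daughters. The difference of -0.0199 was within the shuffled range of -0.0402 to 0.0362 (exact permutation test, p = 0.321, adjusted p = 0.321). The same order held at every level of expression. At 10 to 20 mean counts (14347 contigs) the CV was 0.227 in sons and 0.252 in daughters, and at 100 to 500 counts (9414 contigs) it was 0.128 and 0.140. Over the 236 contigs with 500 counts or more it was 0.160 in sons and 0.166 in daughters, while the ratio of mean variances was lowest there, at 0.575.

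**Figure D2:**
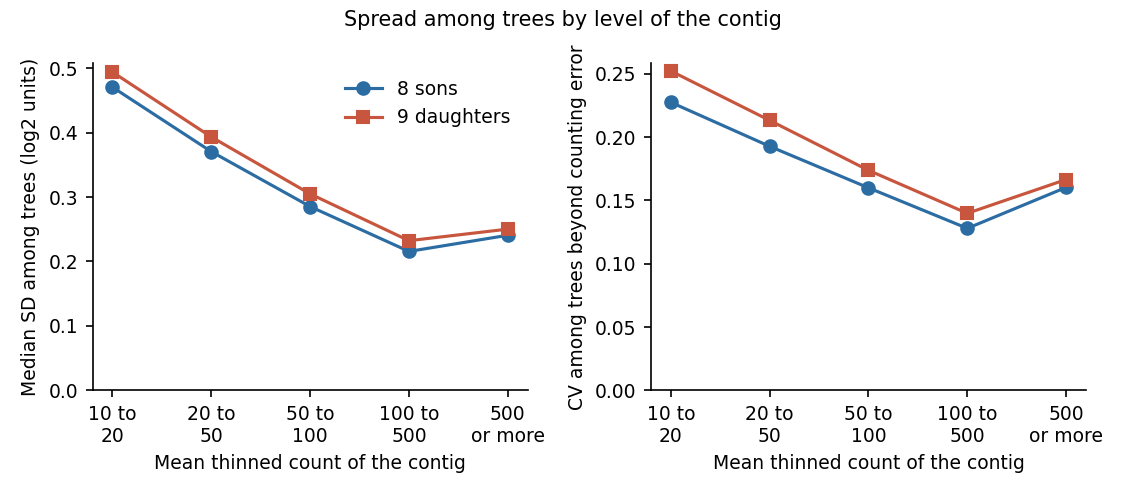
Median SD of log2(CPM + 0.5) among trees (left) and median CV beyond counting error (right) by mean thinned count of the contig, for 8 sons (circles) and 9 daughters (squares). Both curves fall from 10 to 500 counts, and the daughters lie slightly above the sons in each class.

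Contigs with a large SD in sons tended to have a large SD in daughters too. Across the 45773 contigs, the SD among sons and the SD among daughters correlated at a Pearson r of 0.754 and a Spearman rho of 0.653, values across contigs that share libraries and level. The median SD was 0.351 log2 units in sons and 0.374 in daughters, and the 90th percentile was 0.642 and 0.677. Of the 2289 most variable contigs (5%) in each sex, 1213 were shared, 53.0% of each list. Contigs of low level have larger SDs in both sexes. The median SD was 0.471 in sons and 0.494 in daughters at 10 to 20 counts, and 0.216 and 0.232 at 100 to 500. The overlap at matched level was not worked out. A variance at least 4 times that of the other sex was seen for 1392 contigs in sons (3.04%) and 2756 in daughters (6.02%). The shares that shuffled labels give at this limit were not worked out, and the median variance ratio lay inside its shuffled range. The 3 contigs most variable in both sexes had 0 counts in some trees of each sex and over 200 in others. Contig193710DeNovoAssembly, 3636 bases long, had 0 to 2 thinned counts in sons 3, 4, 6 and 8 and 254 to 357 in the other sons, and 0 in daughters 1, 3 and 8 and 244 to 395 in the other daughters. Its SD was 3.73 log2 units in sons and 3.78 in daughters, and the mother had 654 counts where the father had 3. Contig314433DeNovoAssembly, of 528 bases, had the reverse parentage with 1 count in the mother and 301 in the father. It had 0 counts in 3 sons and 4 daughters, with an SD of 3.57 and 3.63. Contig228756DeNovoAssembly, of 345 bases, had 46 counts in the mother and 0 in the father and ran from 0 to 264 counts in sons and from 0 to 429 in daughters, with intermediate values such as 73 in son 2 and 42 in daughter 5.

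Tree by tree, the root mean square (RMS) difference in log2(CPM + 0.5) from trees of the same sex averaged 0.678 ± 0.0229 in sons (SD, n = 8) and 0.717 ± 0.0311 in daughters (SD, n = 9). Among sons it was lowest in sons 9 and 7, at 0.658 and 0.659, and 0.667 in son 1, 0.669 in son 2, 0.675 in son 3, 0.679 in son 6 and 0.686 in son 4. Son 8 stood above them at 0.729. Among daughters it was 0.676 in daughter 6, 0.679 in daughter 3, 0.686 in daughter 7, 0.702 in daughter 8, 0.724 in daughter 5 and 0.737 in daughter 1. Daughters 9, 2 and 4 were the farthest from their sisters, at 0.747, 0.747 and 0.751. The ranges overlap: 3 daughters lay within the range of the 7 nearest sons, and son 8 within the range of the daughters.

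The arrangement of trees differed from a plain split by sex. Of the sons, 7 of 8 were on average nearer to other sons than to daughters, the exception being son 6, the deepest library, at 0.679 from sons and 0.654 from daughters. Of the daughters, 4 of 9 were nearer to their sisters than to sons. Daughter 9 was nearer to sons (0.685) than to daughters (0.747). The nearest pair of all was sons 7 and 9, at 0.514, and the nearest daughters were 6 and 7, at 0.645. The farthest pair of sons was 6 and 8 (0.768), the farthest daughters were 4 and 9 (0.872), and the farthest pair overall was son 8 and daughter 2 (0.906).

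**Figure D3:**
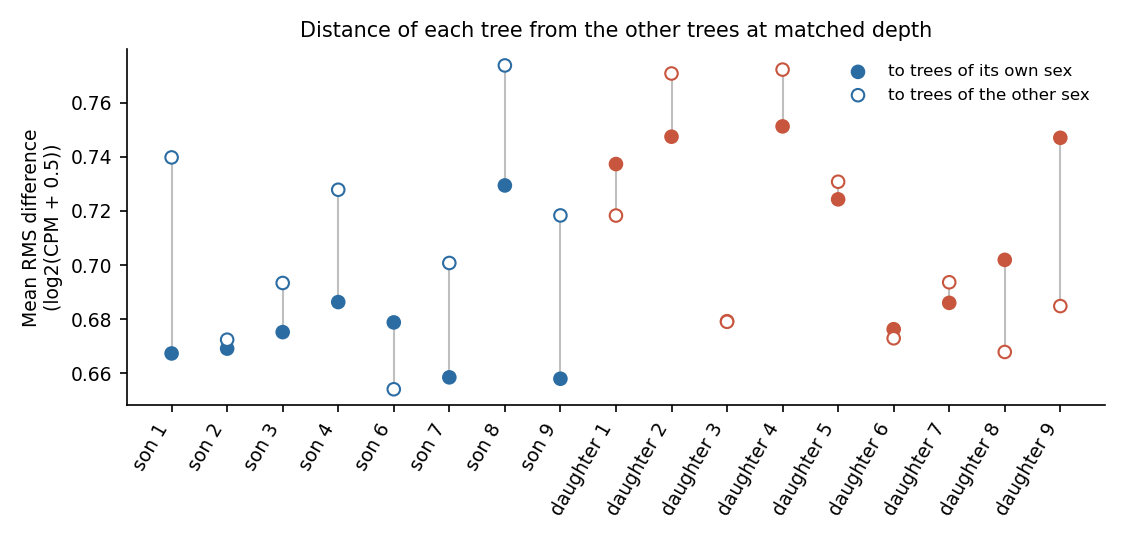
Mean RMS difference of each tree in log2(CPM + 0.5) from trees of its own sex (filled) and of the other sex (open), sons in blue and daughters in red, on an axis that does not start at 0. Son 8 and daughters 1, 2, 4 and 9 lie highest within their own sex, and daughter 9 is the tree with the largest excess over its distance to the other sex.

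Part of the spread among daughters rested on daughters 2, 4 and 9. Without daughter 2, 4 or 9 the ratio of mean variances was 0.916, 0.920 and 0.917, against 0.895 with all trees. Daughters 2 and 4 had the highest scores, 0.423 and 0.473, on the first principal component of the 17 trees (16.5% of the variance). Son 8 (-0.355) and son 1 (-0.336) had the lowest scores. Without daughters 2 and 4 together, the ratio of mean variances was 0.963 and the median log2 variance ratio turned to 0.02 (exact permutation tests, p = 0.616 and 0.905). This choice was made from their values and lowers the spread of daughters by construction. Son 8 acted the other way. Without it the ratio of mean variances was 0.851 (exact permutation test, p = 0.0761), the median log2 variance ratio was -0.33 (p = 0.0447) and the CV of the median contig was 0.156 in sons and 0.194 in daughters (p = 0.0376), p-values that are not adjusted over the trees left out in turn. Over the 17 trees, the library total and the RMS difference from all other trees correlated at r = -0.380 (permutation test, p = 0.131, adjusted p = 0.392 over 6 relations) and rho = -0.321 (permutation p = 0.208), and at r = -0.132 without son 6 and daughter 1, the totals farthest from the median. Within sons r was -0.318 (n = 8, permutation p = 0.365) and within daughters -0.312 (n = 9, permutation p = 0.406).

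Trees also differed in which contigs were counted at all. The mean Jaccard distance (the share of contigs counted in only a single member of a pair) was 0.426 between sons and 0.440 between daughters. This difference of -0.0140 was inside the shuffled range of -0.0207 to 0.0208 (exact permutation test, p = 0.202, adjusted p = 0.321). When a contig had to have at least 3 counts the distances were 0.304 and 0.326 (exact permutation test, p = 0.0300), and at 5 counts 0.264 and 0.282 (p = 0.0337), unadjusted values on the other side of the threshold.

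Few contigs were called for a spread that differed between the sexes, and most of those called were present in every tree of a sex and nearly missing from a fixed set of trees of the other. A limma test on absolute deviations from the mean of each sex called 33 of 45773 contigs (0.0721%) at a Benjamini-Hochberg adjusted p under 0.05, 10 wider in sons (0.0218%) and 23 wider in daughters (0.0502%). Their variances differed by 6.54-fold to 57.1-fold, with a median of 19.3-fold. Absolute deviations favour contigs whose trees fall into high and low groups of similar size, because all deviations are then alike. The on-off pattern of the called contigs therefore follows partly from the test. Contig227474DeNovoAssembly, off in 2 daughters, had a 78.5-fold variance and was not called (limma adjusted p = 0.381). On simulated counts the false calls of the limma test exceeded the nominal rate. The call depends on how deviations are taken: 7 contigs, all wider in daughters, were called on squared deviations and 0 on deviations from the median, where 1285 had an unadjusted p under 0.05. Shuffling the sex of the 17 trees for each contig separately called 0 contigs after adjustment (smallest adjusted p = 0.538), and 2349 (5.13%) had an exact permutation p under 0.05 before it. The smallest p that this exact permutation test can give is 4.11e-05, so a few contigs at that limit cannot pass the adjustment over 45773 contigs. The 0 calls therefore say little about single contigs. Of the 33 contigs, 21 had an exact permutation p under 0.05, with a range of 0.00107 to 0.197. The 33 were chosen for their spread in the same values, so this is not separate support for them. Leaving out son 2 gave 61 calls and leaving out son 3 gave 20. None of the 33 was among the 30 of 62831 contigs (0.0477%) whose mean level differed between sons and daughters in edgeR (smallest adjusted p among the 33 = 0.708). DESeq2 called 94 contigs for the mean level, and edgeR without daughter 9 called 68.

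Of the 33 contigs, 24 shared 3 sets of low trees, taking as low a tree under 25% of the median of the steadier sex, a limit set after the values were seen. A set of 9 contigs was low in daughters 2, 7, 8 and 9, a set of 8 in daughters 1, 2, 3 and 9, and a set of 7 in sons 1, 4, 7, 8 and 9. All 24 had at least 10 counts in the full libraries of the mother and of the father, which took no part in the comparison. The share of all 45773 contigs tested with such counts in both parents was not worked out, so this only describes the 24. Contigs that share a set of trees are not independent of each other, and no position in the genome is known for them.

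**Figure D4:**
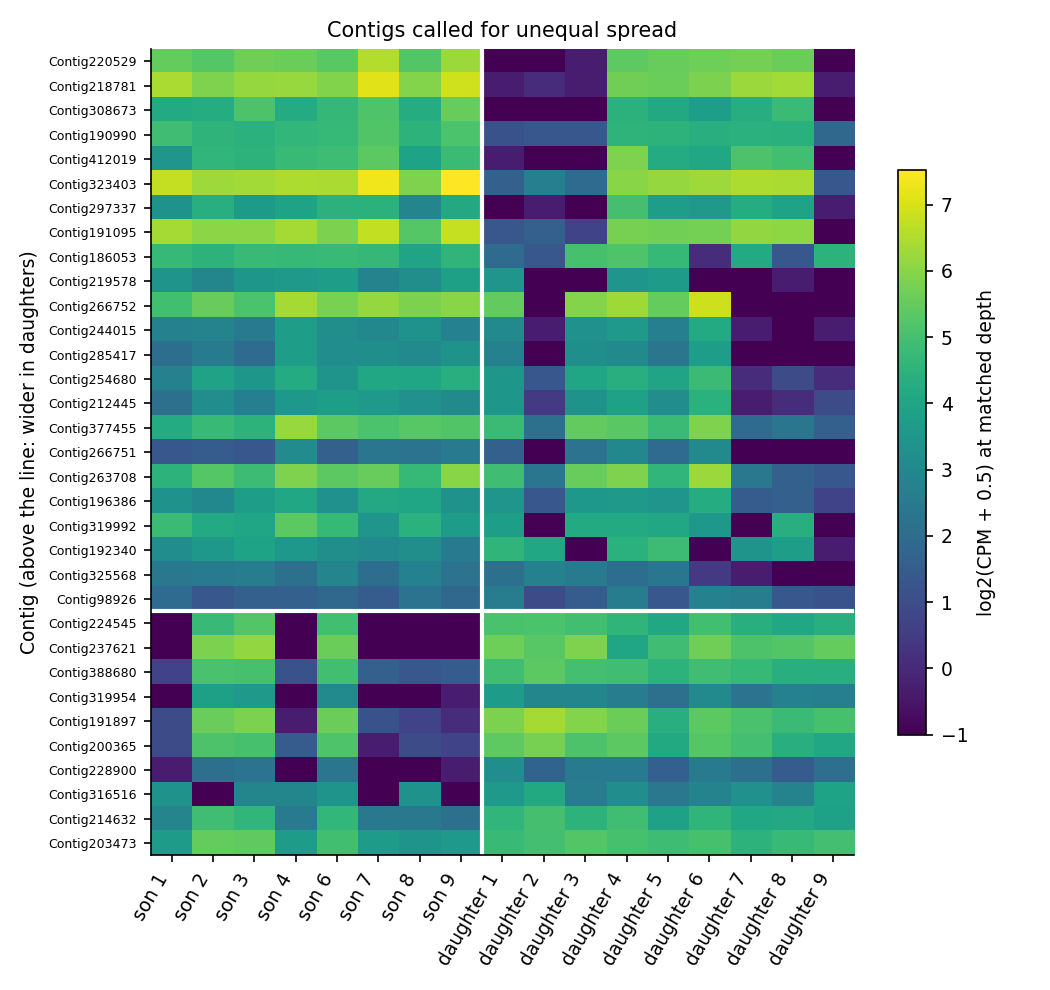
Level of the 33 contigs called for unequal spread in each tree, as log2(CPM + 0.5) at matched depth, with 8 sons left and 9 daughters right of the vertical white line. The 23 contigs above the horizontal line are wider in daughters and the 10 below are wider in sons, and blocks of contigs are dark in the same trees.

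The set low in 5 sons held 7 of the 10 contigs wider in sons. Contig224545DeNovoAssembly, 1377 bases long, had 0 thinned counts in sons 1, 4, 7, 8 and 9 and 95, 132 and 107 in sons 2, 3 and 6. Daughters had 57 to 121 counts, with a median of 82. Its SD was 3.10 log2 units in sons and 0.415 in daughters, a 56.0-fold variance (limma adjusted p = 5.46e-05, exact permutation p = 0.0128), with 143 counts in the mother and 132 in the father. A count of 0 at this depth allows up to 3 counts, or 0.851 CPM, a limit for counting error only. In the full libraries the 5 sons held 1 count of it between them.

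Contig237621DeNovoAssembly, of 302 bases, was at 0 in the same 5 sons and at 169 to 247 in the other 3, against 55 to 207 in daughters (40.8-fold variance, limma adjusted p = 7.83e-05). The 6264-base Contig388680DeNovoAssembly fell less far, to 4 to 9 counts in these 5 sons against 106 to 118 in the other 3 and 69 to 146 in daughters (33.4-fold variance, limma adjusted p = 0.000474). The mother had 98 counts of it and the father 85. Contig319954DeNovoAssembly, of 695 bases, had 0 or 1 count in the 5 sons and 27, 41 and 49 in the others (26.2-fold variance, limma adjusted p = 0.000761). Contig191897DeNovoAssembly, of 5536 bases, had 1 to 6 counts in them against 167 to 198 (19.0-fold variance, limma adjusted p = 0.00290). A separate contig, Contig316516DeNovoAssembly of 889 bases, was at 0 in sons 2, 7 and 9 and at 25 to 36 in the other sons (SD of 2.18 log2 units in sons and 0.605 in daughters, limma adjusted p = 0.00220). For it, shuffled labels gave a ratio as large in 18.4% of assignments.

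Of the 6 contigs wider in daughters with the smallest p, 5 were low in daughters 1, 2, 3 and 9. Contig220529DeNovoAssembly, 1166 bases long, had 0 or 1 thinned count in these daughters and 148 to 187 in the other 5, against 133 to 326 in sons with a median of 164. Its SD was 0.467 log2 units in sons and 3.39 in daughters, a 52.7-fold variance (limma adjusted p = 6.25e-08), while the exact permutation p was 0.0810. In their full libraries the mother had 420 counts (60.6 CPM) and the father 296 (43.3 CPM), against a mean of 53.2 CPM in sons. Contig218781DeNovoAssembly, of 2653 bases, had 1 or 2 counts in the low daughters, 169 to 286 in the other daughters and 204 to 499 in sons (46.3-fold variance, limma adjusted p = 9.93e-08, exact permutation p = 0.0531). Contig308673DeNovoAssembly, of 857 bases, was at 0 in these daughters and at 45 to 97 in their sisters (29.0-fold variance, limma adjusted p = 3.83e-07, exact permutation p = 0.0582). Contig412019DeNovoAssembly, of 601 bases, followed the same set (26.6-fold variance, limma adjusted p = 5.46e-05, exact permutation p = 0.0241). In Contig190990DeNovoAssembly, of 2444 bases, the low daughters kept 6 to 11 counts against 69 to 81 in their sisters (31.7-fold variance, limma adjusted p = 2.49e-06, exact permutation p = 0.0547).

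The other large set is seen in Contig266752DeNovoAssembly, of 307 bases, which was at 0 in daughters 2, 7, 8 and 9 and at 156 to 411 in the other daughters. Sons had 106 to 292 counts, with a median of 198. In their full libraries the mother had 78 counts (11.3 CPM) and the father 150 (21.9 CPM), against 30.1 to 82.8 CPM in sons. The variance was 54.8-fold larger in daughters (limma adjusted p = 2.23e-07, exact permutation p = 0.0288). Daughters 2 and 9 are low in both of the sets seen in daughters, and daughters 4, 5 and 6 in neither.

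**Figure D5:**
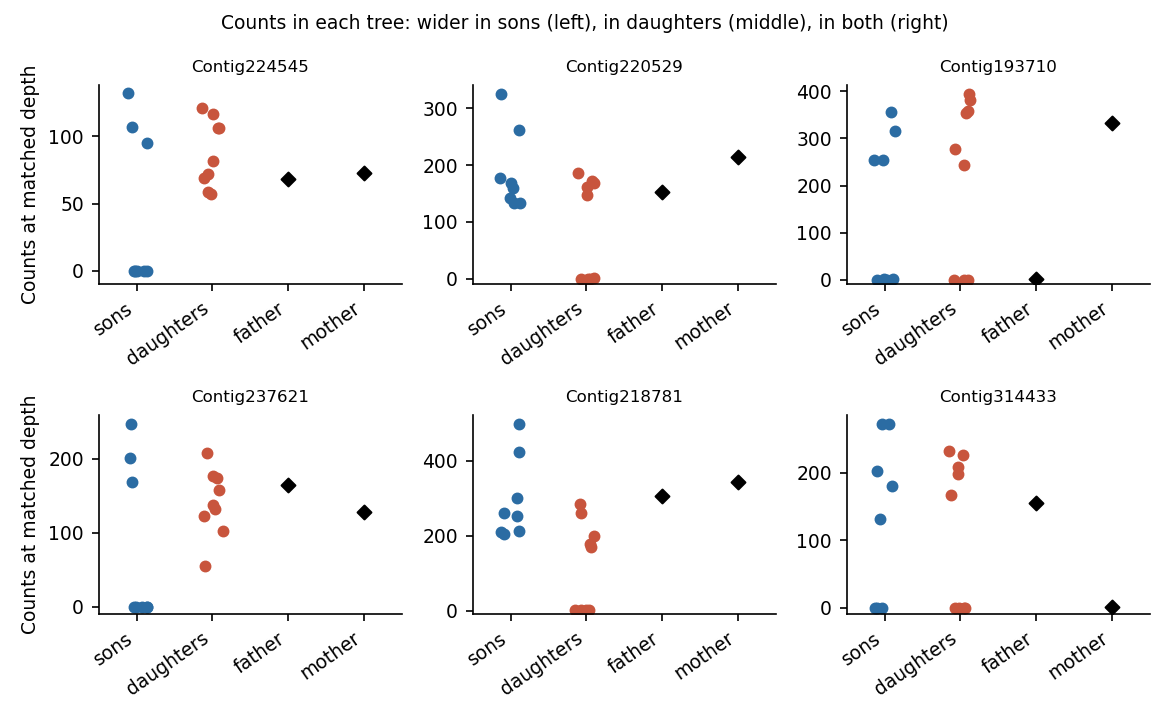
Counts at matched depth in each son and daughter (dots) and in the father and mother (diamonds, scaled to the same depth) for contigs wider in sons (left), wider in daughters (middle) and variable in both sexes (right). The contigs wider in a single sex fall into high and low trees in that sex, with both parents high, while the contigs on the right are high in 1 parent only.

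A direct count of switched-off contigs gave the largest contrast between the sexes. Of 376125 contigs with a thinned count, 36 (0.00957%) had at least 10 counts in every son and 0 in at least 2 daughters, and 7 (0.00186%) had at least 10 in every daughter and 0 in at least 2 sons. The rule is not symmetric, since it needs all 8 sons on for the former count and all 9 daughters on for the latter. Shuffled differences, taken under the same rule, therefore reach farther below 0 than above it. The difference of -29 lay outside the shuffled range of -24 to 18 (exact permutation test, p = 0.00671, adjusted p = 0.0335 over 5 tests). Over 6 random thinnings the difference was -29 to -22 and p was 0.00671 to 0.0447, and the adjusted p was under 0.05 only in the thinning reported here. Without daughter 1, 2, 7 or 9 the difference was -7, -21, -11 and -23 (exact permutation tests, p = 0.232, 0.106, 0.0684 and 0.0564), and without daughters 2 and 4 together it was -14 (p = 0.357). Without son 2 it was -48 (exact permutation test, p = 8.74e-05).

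Of the 36 contigs, 17 were off in daughters 1 and 7 alone. In the full libraries, daughter 1 and daughter 7 together had 1 count on all 17. The other trees had 833 (daughter 5) to 2261 (son 8) thinned counts summed over them. The contigs were 215 to 2361 bases long (median 325), and carried 3 to 1179 small RNA counts in the parents' buds. The highest of them, Contig227474DeNovoAssembly of 616 bases, had 439 to 963 thinned counts in sons and 346 to 837 in the other 7 daughters. In their full libraries the mother had 853 counts (123 CPM) and the father 1072 (157 CPM), against a mean of 178 CPM in sons. None of the 17 was called by the limma test (for Contig227474DeNovoAssembly the adjusted p was 0.381).

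Another 4 of the 36 contigs had under 10 counts in every daughter and so differed in level between the sexes rather than among daughters. These are Contig202197DeNovoAssembly, Contig217628DeNovoAssembly, Contig333146DeNovoAssembly and Contig350312DeNovoAssembly, named after their values were seen. Sons had 19 to 236 counts of them and daughters 0 to 6, and the father had 37 to 245 where the mother had 0 to 7. Their mean level differed between the sexes in edgeR, which is no separate support because the rule that chose them already sets sons above daughters. Their SD was 0.381 to 0.549 log2 units among sons and 0.468 to 0.773 among daughters, whose counts lie near the floor. In the limma test 0 of the 4 were called for unequal spread (smallest adjusted p = 0.742). Without contigs whose mean level differed, 32 against 7 contigs remained (exact permutation test, p = 0.0251). Of all 36, 27 had at least 10 counts in the full libraries of both parents, 7 had fewer in the mother and 2 had fewer in the father. The 4 contigs low in every daughter are among the 7 with fewer in the mother. All 7 contigs switched off in sons had at least 10 in both parents. The share of all contigs with such counts was not worked out, so these numbers are a description only. Among those 7, Contig312817DeNovoAssembly of 292 bases, was at 0 or 1 in sons 1, 4 and 8, at 12 to 39 in the other sons and at 19 to 88 in daughters (limma adjusted p = 0.122).

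Sharp on-off differences were seen among trees of both sexes. Of the 45773 contigs, 202 (0.441%) split the trees cleanly, with 2 to 8 low trees each under 10% of the lowest of the remaining trees and those at 10 counts or more, a rule set after the data were seen. The low trees included both sexes in 147 of them, only daughters in 42 and only sons in 13. Larger sets of low trees hold both sexes more readily. The numbers that shuffled labels give were not worked out, so these are a description only. These 202 contigs held 88 different sets of low trees. The set of daughters 1 and 7 came first with 24 contigs, followed by a pair of mixed sets with 11 contigs each.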

How the data were processed

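The authors deposited a table of raw counts per de novo assembled contig, with contig lengths in bases as another column. Tools listed in the submitters' processing notes are BWA, DESeq 1.14 and R 3.0.1. How reads were counted, with or without strand and with multiple matches, is not given in the sources used here, so contigs that share reads are uncertain. The deposited small RNA counts serve only as a description.

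Sex was taken from the source label of each library. Son 5 (387 counts) and the parents were left out. The counts of 17 trees were thinned without replacement to 3527282, and contigs with a mean of at least 10 were kept. Variances of log2(CPM + 0.5) were compared over all 24310 assignments of sex (two-sided exact permutation tests, Benjamini-Hochberg adjusted over 5 tests). The biological CV subtracts counting variance. Spread per contig was tested with limma 3.58.1 (robust) on absolute deviations from the sex mean, and mean level on full counts with edgeR 4.0.16 (quasi-likelihood, TMM), with DESeq2 1.42.0 as an alternative, in R 4.3.3. Other steps used Python 3.11.15. Adjusted p-values cover all contigs tested. On simulated counts the limma test found contigs switched off in some trees but missed most graded differences in spread, and its false calls exceeded the nominal rate. The floor of 3 counts covers counting error only, while the shuffled ranges come from reassigning sex among the trees.

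Named contigs are the 6 with the smallest p in each direction of the unequal-spread test, up to 3 switched off in some trees in each direction with the highest level in the other sex, and the 3 most variable in both sexes. The members, lists and tests were chosen with earlier results of these data known.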

Additional observations from a re-analysis of the deposited data

Results flagged for a closer look

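Of 46 groups of tree values examined, 4 held a tree far from the rest of its group, and chance flags about 1 in 20 groups. Son 6 had 15314430 counts where the other sons had 5823321 to 8661160. At matched depth son 6 also had the most contigs counted, 172543 against 140775 to 153003 in the other sons. Son 8 had an RMS difference of 0.729 from other sons, where the other sons had 0.658 to 0.686. For Contig319954DeNovoAssembly, daughter 1 had 12.2 CPM where the other daughters had 3.97 to 7.65 CPM. The part of library preparation in these values was not tested.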

How the results depend on the processing

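The ratio of mean variances stayed below 1 and within the shuffled range under 16 alternatives, and ran from 0.851 to 0.920 with each tree left out. The median log2 variance ratio turned to 0.016 and the CV difference to 0.00172 without daughters 2 and 4, a setting chosen after seeing the data. With each tree left out they ran from -0.33 to -0.12 and from -0.0372 to -0.0105. The common dispersion of edgeR gave a CV difference of -0.0154. The difference in Jaccard distance was -0.0215 at 3 counts and -0.0178 at 5 counts, and -0.0198 to -0.00953 with each tree left out. The difference in switched-off contigs was -36 when on meant 5 counts (exact permutation p = 0.0803), -9 when at least 3 trees had to be off (p = 0.0809) and -14 without daughters 2 and 4, and -48 to -7 with each tree left out. Counted as distinct sets of off trees, a setting added after seeing the data, it was 5 in sons and 19 in daughters (exact permutation p = 0.00728). Sets were told apart by exact counts of 0, so contigs low in the same daughters 1, 2, 3 and 9 fell into several sets. Contigs near 0 in every daughter did so too, so the 19 sets are not independent of each other. Contigs with unequal spread numbered 7 on squared deviations, 0 on deviations from the median, 0 by exact permutation of each contig (added after seeing the data) and 20 to 61 with each tree left out. The exact permutation could hardly call a contig, because its smallest possible p is large for an adjustment over so many contigs. Contigs of unequal mean level numbered 414 without a filter, 94 in DESeq2 and 24 to 68 with each tree left out. The cause of these changes was not tested. No paired analysis was possible because the trees of both sexes carry numbers given in accession order, which pair nothing. The depth of daughter 1 limits all values to contigs counted at 3527282 counts per tree.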

Other observations

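The smallest exact permutation p of a single contig, 4.11e-05, is the smallest that the assignments can give, and 3 contigs named here after their values were seen reached it. Contig194579DeNovoAssembly had 19 to 24 thinned counts in sons and 18 to 53 in daughters. Contig200652DeNovoAssembly had 33 to 41 in sons and 25 to 48 in daughters. Contig280155DeNovoAssembly had 36 to 49 in sons and 24 to 125 in daughters. A p of that size cannot pass the adjustment over 45773 contigs unless many contigs reach it, and none of these passed. In limma their adjusted p-values were 0.653, 0.0887 and 0.752.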
